A study of Mus musculus with 4 samples.

Results

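The Runx transcription factors and their common partner, core binding factor beta, were followed in RNA that came down with the RNA-binding protein CUGBP1 in mouse myoblasts. The family was defined by name as *Runx1*, *Runx2*, *Runx3* and *Cbfb*, and a member was measured where a probe set was annotated to that gene alone. This gave 3 of the 4 genes, with 1 probe set each, among 19452 genes and 21044 probe sets that name a single gene. *Runx2* was not analysed here, since the annotation used pairs none of these probe sets with it. A probe set that the study's own lists name *Runx2* has no gene in that annotation and was not used. Proliferating C2C12 (LKO-1) cells, a myoblast line carrying an empty lentiviral vector and kept in puromycin, were used for all samples. Cytoplasmic lysate was incubated with the monoclonal antibody 3B1 against CUGBP1 (CUGBP1 IP, 2 arrays) or, for the negative control, with normal IgG (control IgG, 2 arrays). The RNA of each immunoprecipitate was hybridized to its own Affymetrix Mouse Gene 1.0 ST array. LKO-1 is a stable line, and whether it is 1 clone is not stated.

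Runx proteins bind DNA through the Runt domain and act as activators or repressors, depending on the cofactors they recruit. Cbfb does not contact DNA itself, but it holds the Runt domain in its DNA-binding form and shields Runx proteins from degradation. *Runx1* is best known for blood stem cell formation and is induced in denervated muscle, *Runx2* directs bone formation, and *Runx3* acts in T lymphocytes and sensory neurons. CUGBP1, encoded by *Celf1*, binds GU-rich elements in mRNA and recruits deadenylases, so transcripts that associate with it can be marked for decay. The comparison asks whether the transcripts of these regulators came down with CUGBP1.

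The Runx genes also share a sequence feature outside the array data. The Runt domain recognises the motif ACCACA, and a pair of such motifs lies near an annotated transcription start of every Runx gene. The stretches are shown because the pair is what the *Runx* genes have in common and *Cbfb* lacks, with the motifs in capitals, written 5′ to 3′ on the strand of the gene (RefSeq, GRCm38.p6).
Runx1: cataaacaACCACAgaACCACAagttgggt
Runx2: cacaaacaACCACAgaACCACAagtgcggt
Runx3: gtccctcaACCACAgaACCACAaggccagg
They lie at chr16:92826025-92826054 (minus strand), chr17:44814583-44814612 (minus strand) and chr4:135120503-135120532 (plus strand). The first motif of the pair begins 28 bases downstream of the start in *Runx1*, 23 bases downstream in *Runx2* and 134 bases upstream in *Runx3*. Windows of 300 bases around annotated starts were searched on both strands for ACCACANNACCACA, where N is any base. It was found in 7 of 32851 windows (0.0213%), of which 3 belong to the Runx genes. The pattern has the spacing of the stretches shown, so these 3 match by construction. The count is therefore not a test of the Runx genes. The other window of *Runx1*, the other window of *Runx3* and the window of *Cbfb* did not hold it. The single motif ACCACA, which every match of the pair contains, was in 16.8% of all windows. These are matches of letters in promoter DNA and were not set against the array values.

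The members were above background on every array. Values are intensities divided by the 5th percentile of the same array, so a probe set with no transcript reads about 1. The upper end of the background range, the 95th percentile of olfactory and vomeronasal receptor probe sets, ran from 1.09 to 1.29 over the 4 arrays. Only 36.7% of the tested probe sets were above it on all 4. The arrays differed in overall brightness, with a median of 1.08 and 1.22 with control IgG and of 1.31 and 1.5 in the CUGBP1 IP, and most probe sets read higher in the CUGBP1 IP. The part of this difference in the values of single genes was not tested. Among myoblast markers, 8 of 8 were above background on both CUGBP1 IP arrays and 6 on all 4, including *Myod1* and *Des*. Their summed intensity was 44.4 and 48.5 against 12.3 and 18.9 in control IgG, of which *Myod1* alone gave 18.8 and 23.21 against 1.77 and 3.3. *Cdh15* and *Msc* were the markers that did not clear background everywhere. Of 7 leukocyte markers 0 were above background on both arrays of either group, and *Ptprc*, their defining gene, read between 1.03 and 1.11. Their summed intensity was 7.82 and 8.14 against 7.24 and 7.64. Of 7 osteoblast and chondrocyte markers 2 (*Col2a1* and *Sost*) were above background on all 4 arrays, with sums of 8.82 and 10.05 against 7.48 and 8.36, while *Ibsp* and *Sp7* were not. Of 8 neuron markers 5 were above background on both CUGBP1 IP arrays and 2, *Stmn2* and *Tubb3*, on all 4. The 8 summed to 21.2 and 27.6 against 9.68 and 14.2, of which *Stmn2* alone gave 11.2 and 12.65 against 2.31 and 5.78. *Tubb3* rose (ratio 3.37, limma adjusted p = 0.0233).

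*Runx3* had the highest ratio of the measured members. Its probe set 10509030 read 1.42 and 4.14 with control IgG, and 8.91 and 15.57 with the CUGBP1 antibody. The lower CUGBP1 IP value exceeded the higher control value, although the control arrays differed from each other by 2.92-fold. Replicate 2 over replicate 1 was thus above its 95th percentile over all tested probe sets, 2.295 with control IgG. The same held in the CUGBP1 IP, with 1.747 against 1.597. The means were 12.2 ± 4.71 and 2.78 ± 1.92 (SD, n = 2), which gave a ratio of the CUGBP1 IP mean to the control mean (the signal-to-negative ratio) of 4.40. This ranked 320 of 21044 and lay in the top 5% of the probe sets tested here, where the 95th percentile was 2.57. The study also took a top 5% as associated with CUGBP1, but over another set of transcripts and with a higher limit. The log2 difference was 2.28 (SE 1.00, 95% confidence interval 0.33 to 4.23), with an unadjusted p = 0.0221 and an adjusted p = 0.138 in limma, so *Runx3* was not called. *Runx3* was among the transcripts that the study picked from these immunoprecipitates for decay measurements, whose outcome is not reported here. The primers used for it are shown because they define the *Runx3* amplicon of those measurements.
Runx3 left primer: acttcctctgctccgtgct
Runx3 right primer: ggtcaccaccgttccatc

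*Cbfb*, the partner subunit, came next by ratio. Probe set 10574632 read 2.78 and 6.06 with control IgG, and 10.37 and 12.21 with the CUGBP1 antibody. The groups did not overlap. The ratio of the means, 11.3 ± 1.30 over 4.42 ± 2.32 (SD, n = 2), was 2.55. This ranked 1078 and fell just under the limit of the top 5% of the probe sets tested here. The log2 difference was 1.46 (SE 1.13, interval -0.76 to 3.67, limma adjusted p = 0.307), so the interval includes 0.

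*Runx1* had the smallest ratio of the measured members. Probe set 10441003 read 1.66 and 2.66 with control IgG, and 4.76 and 4.56 with the CUGBP1 antibody, where the replicates differed by less than the controls did. The groups again did not overlap, and the means of 4.66 ± 0.141 and 2.16 ± 0.707 (SD, n = 2) gave a ratio of 2.16, which ranked 1752. The log2 difference was 1.15 (SE 0.65, interval -0.13 to 2.43, limma adjusted p = 0.198). In a bulk lysate, more cells holding a transcript and more transcript per cell cannot be told apart, and RNA of the input was not analysed here, so these ratios are not corrected for how abundant each transcript was.

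**Figure D1:**
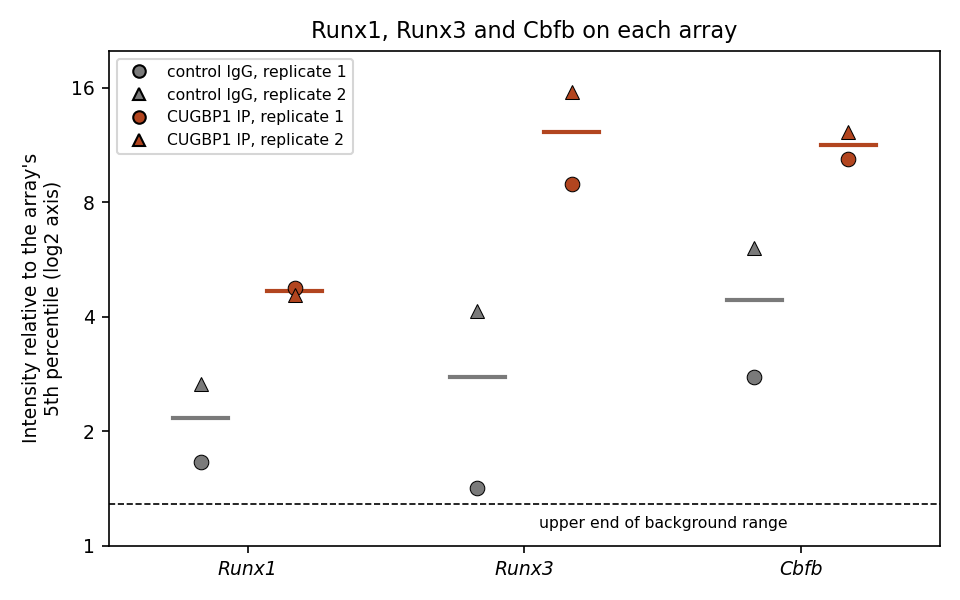
Intensity in units of each array's 5th percentile (log2 axis) for *Runx1*, *Runx3* and *Cbfb*, with a point per array, a horizontal line at the mean of 2 arrays, and a dashed line at 1.29, the highest upper end of background on any array. Both CUGBP1 IP points lie above both control IgG points for each gene, and control IgG replicate 2 reads above replicate 1 each time.

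Counted together, limma called 0 of the 3 members, with 1 (*Runx3*) at an unadjusted p under 0.05. Over all tested probe sets 1.95% were called higher, and 28.6% were higher at an unadjusted p under 0.05. The groups did not overlap, with the CUGBP1 IP higher, for 3 of 3 members, but also for 66.3% of all probe sets. The ratio was over 1 for 3 of 3 members and 93.3% of all probe sets, and at least 2 for 3 of 3 members and 10.4% of all probe sets. The median ratio was 1.22 over all probe sets and 1.61 over the 7727 that, like the members, were above background on all 4 arrays. The share of those 7727 with a ratio of at least 2 was not computed, so the 10.4% is not a like-for-like comparison. In the top 5%, which held 5% of the probe sets by construction, there was 1 of 3. limma also called 0 members after median scaling (6.47% of all probe sets called higher), quantile normalization (2.02%), an offset before log2 (3.63%) and a filter on background (6.87%). With the replicate number as a block it called 2 members, where 56.1% of all probe sets were called higher.

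The choice of control array weighed on every member. Against control IgG replicate 1 alone the ratio was 8.62 for *Runx3*, 4.06 for *Cbfb* and 2.81 for *Runx1*. Against control IgG replicate 2 alone it was 2.96, 1.86 and 1.75. *Runx3* remained above the 95th percentile of all probe sets in both cases, which was 3.97 and 2.12. *Cbfb* was above that limit against replicate 1 and below it against replicate 2, and *Runx1* was below it in both. Quantile normalization, which forces the 4 arrays to the same distribution, moved the members differently. The ratio of *Runx3* was then 1.92, at percentile 98.12 of all probe sets. *Runx1* and *Cbfb* fell below 1 with 0.920 and 0.868, and below the median of all probe sets, 0.987. Their percentiles were 25.1 and 15.17, where they had been 91.68 and 94.88 with the values as deposited. With arrays scaled to their medians the ratios were 3.65, 2.13 and 1.80 for *Runx3*, *Cbfb* and *Runx1*. Over all the scalings and arrays left out, the percentile of *Runx3* ran from 97.64 to 99.15.

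**Figure D2:**
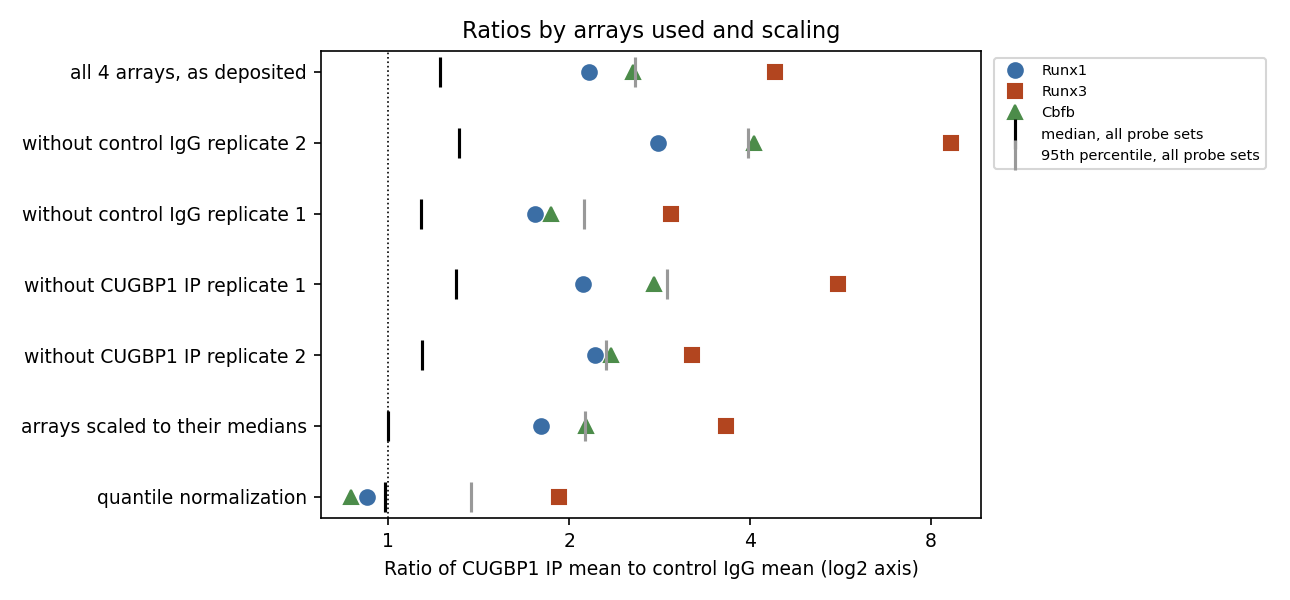
Ratio of the CUGBP1 IP mean to the control IgG mean (log2 axis) for *Runx1*, *Runx3* and *Cbfb* with all arrays, with an array left out, and under other scalings, and vertical ticks at the median and the 95th percentile of all probe sets. *Runx3* lies right of the 95th percentile in each row, while *Cbfb* and *Runx1* drop to 0.868 and 0.920 with quantile normalization.

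To ask whether the members differed from each other, their log2 values were subtracted within each array, which cancels any factor common to that array. *Runx3* minus *Runx1* was -0.23 and 0.64 with control IgG, and 0.90 and 1.77 with the CUGBP1 antibody. *Runx3* minus *Cbfb* was -0.22 and 0.35 against -0.97 and -0.55. In both pairs the CUGBP1 IP arrays lay above the control arrays, by 1.13 and 0.83 in the mean on the log2 scale. Both contain *Runx3*, so they are not separate observations, and how often other pairs of probe sets separate was not computed. The pair of *Cbfb* and *Runx1* overlapped, with a difference of 0.31 that turned to -0.08 with quantile normalization. The *Runx3* differences kept their sign, at 1.11 over *Runx1* and 1.19 over *Cbfb*. Over these 3 pairs the exact two-sided permutation test gave p = 0.333, 0.333 and 0.667 (adjusted p = 0.50, 0.50 and 0.667). With 2 arrays against 2 the smallest p it can give is 0.333, so no pair could pass.

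**Figure D3:**
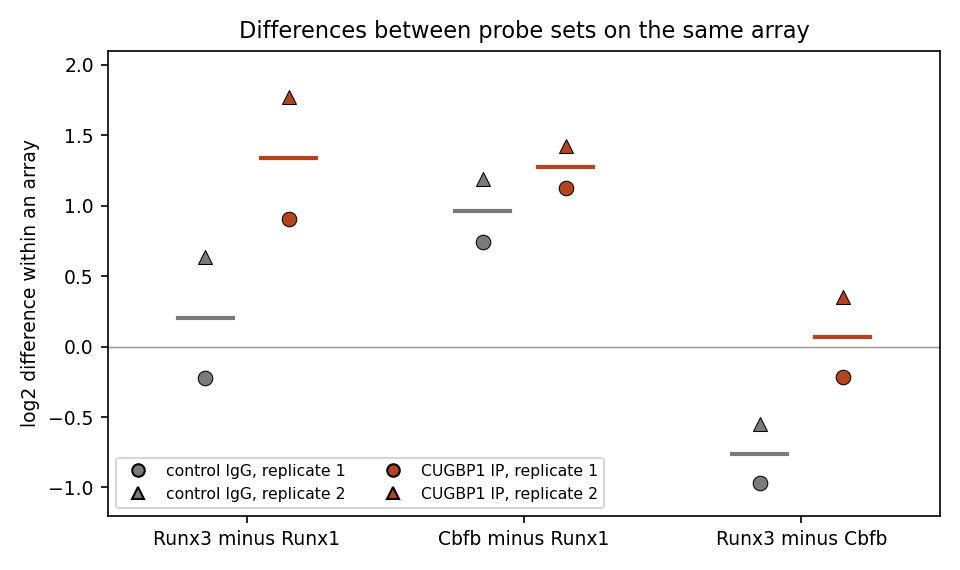
Difference in log2 intensity between 2 probe sets on the same array, with a point per array and a line at the mean of 2 arrays. For *Runx3* minus *Runx1* the CUGBP1 IP mean lies 1.13 above that of control IgG, and for *Runx3* minus *Cbfb* 0.83 above, while the groups of *Cbfb* minus *Runx1* overlap.

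Transcripts whose profile over the 4 arrays was most like that of each member were found by the Euclidean distance of their log2 values. Nearest to *Runx3* were *Dad1*, a subunit of oligosaccharyltransferase (distance 0.29, ratio 3.74), *Sgpp1*, a sphingosine phosphate phosphatase (0.33, ratio 4.57), and *Lmo4*, a LIM domain transcription cofactor (0.36, ratio 4.53). Nearest to *Runx1* were the forkhead factor gene *Foxp1* (0.13, ratio 2.20), the growth factor gene *Pdgfc* (0.16, ratio 2.34) and *Plaa* (0.16, ratio 2.18). Nearest to *Cbfb* were *Nfix*, a nuclear factor I gene active in muscle (0.16, ratio 2.48), *Disp1* (0.16, ratio 2.46) and *Cfdp1* (0.22, ratio 2.80). limma called 0 of these 9, with adjusted p-values from 0.141 to 0.328.

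The proteins that modify Runx factors, from ubiquitin ligases to kinases, had the highest median of the pathway lists. Of 16 measured, *Cdk6*, a kinase of the G1 phase, rose (5.91 and 10.53 against 1.05 and 1.58 with control IgG, ratio 6.25, log2 difference 2.62, limma adjusted p = 0.0198). *Cdk6* in control IgG replicate 1 was within the background range. *Fzr1*, an activator of the anaphase-promoting complex, read 10.2 and 16.71 against 1.41 and 2.03 (ratio 7.82, limma adjusted p = 0.0545). *Ccnd1*, cyclin D1, read 12.59 and 19.69 against 1.80 and 3.08 (ratio 6.62, limma adjusted p = 0.110). The ubiquitin ligase subunit gene *Fbxw7* had the lowest ratio, 1.15, but was above background on CUGBP1 IP replicate 2 alone. In this list 5 of 16 were in the top 5%, and 13 had groups that did not overlap, against 66.3% of all probe sets.

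Transcription factors that work with Runx proteins at their targets followed. Of 27 measured, *Sox9*, the master factor of cartilage, rose (7.49 and 9.74 against 1.22 and 1.81, ratio 5.69, log2 difference 2.52, limma adjusted p = 0.0409). *Jun*, a subunit of AP-1, reached 7.27 by ratio without a call (limma adjusted p = 0.0831). The same held for *Atf4*, a stress response factor, at 4.45 (limma adjusted p = 0.186). The blood factor gene *Tal1* had the lowest, 1.03. In this list 5 were in the top 5%, and in 23 of 27 the groups did not overlap, against 66.3% of all probe sets. With any 1 array left out limma called 0 of all probe sets, *Cdk6* and *Sox9* included (adjusted p = 0.172 to 0.663 for both), while their log2 differences ran from 2.20 to 3.03 and from 2.24 to 2.81.

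limma called 0 of 21 cofactors and 0 of 24 target genes, with 7 and 6 higher at an unadjusted p under 0.05, where 28.6% of all probe sets were. The highest ratios among cofactors were those of *Wwtr1*, which encodes TAZ (2.03, limma adjusted p = 0.196), *Crebbp*, a histone acetyltransferase (1.94, 0.108), and the Groucho family gene *Tle5* (1.88, 0.488). *Tle4* had the lowest, 1.16, and was within the background range on every array. Among target genes the highest ratios were those of *Zbtb7b*, a factor of helper T cells (3.03, limma adjusted p = 0.120), *Tgfbr1*, a TGF-beta receptor (2.41, 0.0912), and *Vegfa*, an angiogenic factor (2.17, 0.246). *Il3*, an interleukin gene, read at background with a ratio of 1.02. Of the target genes 1 was in the top 5%, and 7 were above background on all 4 arrays, against 13 of the cofactors. The groups did not overlap for 17 of 21 cofactors and 19 of 24 target genes, against 66.3% of all probe sets.

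The median log2 difference was 1.05 for modifiers, 0.63 for partner transcription factors, 0.61 for cofactors and 0.23 for target genes, against 0.29 over all genes. Relative to all genes these were 0.76, 0.34, 0.32 and -0.06, and with quantile normalization 0.23, 0.07, 0.05 and -0.01. Without control IgG replicate 1 they were 0.59, 0.29, 0.098 and 0.0097, so the target genes changed sign. The 7727 probe sets that cleared background on every array had a median log2 difference of 0.73. Of the 4 lists, which were not filtered on background, only the modifiers exceeded it. Over the 87 genes of the 4 lists, 2 were called higher and 0 lower, or 2.30% where all probe sets gave 1.95% and 0.138%. The top 5% held 11 of them (12.6%), and 72 (82.8%) had groups that did not overlap, where all probe sets gave 66.3%. These shares are not like for like, since the lists count 1 probe set per gene, the brightest. Above background on all 4 arrays were 14 of 16 modifiers, 17 of 27 partner transcription factors, 13 of 21 cofactors and 7 of 24 target genes. Of all probe sets 36.7% were, and the shares among those alone were not computed.

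**Figure D4:**
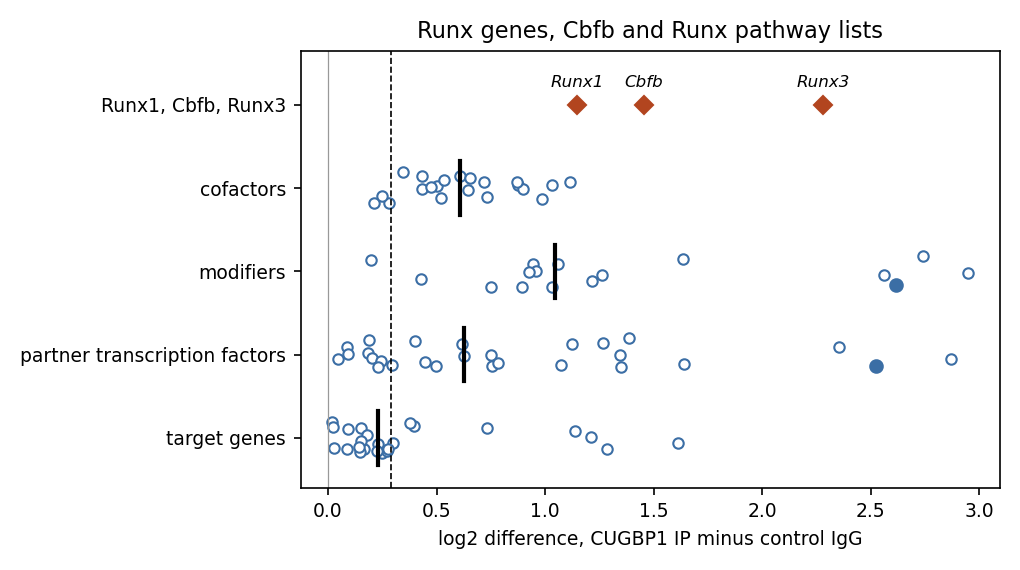
Log2 difference, CUGBP1 IP minus control IgG, of *Runx1*, *Cbfb* and *Runx3* (diamonds) and of the genes of 4 Runx pathway lists (circles, filled where called by limma), with bars at list medians and a dashed line at 0.29, the median of all probe sets. The medians run from 0.23 for target genes to 1.05 for modifiers, and the filled points are *Cdk6* and *Sox9*.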

How the data were processed

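Immunoprecipitated RNA was profiled on 4 arrays. The deposited values are linear intensities per probe set, which the authors divided by each array's 5th percentile. Which program summarised them, and after what background correction, is not given in the sources used here. Dividing leaves the background in place, so ratios of dim probe sets are compressed. A platform annotation paired 21044 of 25175 probe sets with 1 gene, 1492 with several and 2639 with none, and 20959 symbols were updated through gene identifiers (GRCm38.p6, names only). Log2 values were compared with limma 3.58.1 in R 4.3.3 (eBayes, variance trended on intensity). Two-sided p-values were adjusted by Benjamini-Hochberg over all 21044, with a threshold of 0.05. The fit was also run on simulated data with independent noise on each array, unlike these arrays, where same-numbered ones deviated together. The study itself ran no statistical test on single transcripts of these arrays and ranked them by ratio. It also assayed some transcripts in CUGBP1 immunoprecipitates by RT-PCR, whose outcome is not reported here. Samples were grouped by title. Nothing says that replicates came from separate cultures, so p-values measure only the spread between these samples, which may be technical. The number of arrays limits the precision. Sequences came from RefSeq promoter windows and the study's primer list. The members and gene lists were chosen with earlier results of these data known. Named were all members, per list the called genes, the 3 highest ratios and the lowest, and per member the 3 nearest profiles. A gene with several probe sets counts by the brightest. Alternatives were other scalings, an offset, no trend, a background filter, a replicate block and each array left out. Exact permutation tests used scipy 1.17.1.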

Additional observations from a re-analysis of the deposited data

How the results depend on the processing

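The number of calls depended on the settings, and the member ratios depended on quantile normalization. limma called 411 probe sets higher and 29 lower with all arrays as deposited. It called 1362 higher with arrays scaled to their medians, 763 with an offset of 1 before log2 and 815 among the 11869 probe sets above background on both arrays of a group. Lower calls were 17 with quantile normalization and 0 with that background filter. Without the intensity trend limma called 0 in either direction, with 4757 at an unadjusted p under 0.05, and so 0 modifiers and 0 partner transcription factors. With an array left out, counts ran from 0 to 0 for higher and lower calls, members and all 4 lists, with 1062 to 6085 probe sets at an unadjusted p under 0.05. Such a fit has 1 residual degree of freedom, and the lone array is assumed to vary like the other group.

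*Cdk6* and *Sox9* were called with all arrays, but not without the intensity trend (adjusted p = 0.145 and 0.144) or with any array left out, settings under which limma called 0 probe sets. Their log2 differences without the trend stayed at 2.62 and 2.52.

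The members were called under no setting except the replicate block described below, but the direction of *Runx1* and *Cbfb* was not stable. With quantile normalization their log2 differences reversed to -0.12 and -0.20 and their ratios to 0.920 and 0.868. The cause was not tested. Leaving out an array gave ratios from 2.96 to 8.62 for *Runx3*, 1.86 to 4.06 for *Cbfb* and 1.75 to 2.81 for *Runx1*, the high values without control IgG replicate 2. The log2 differences ran from 1.51 to 3.05, 0.89 to 2.02 and 0.81 to 1.49. Median scaling called 3 of 21 cofactors, 4 of 16 modifiers, 2 of 27 partner transcription factors and 2 of 24 target genes. It called 6.47% of all probe sets higher. Quantile normalization called 4 modifiers and 2 partner transcription factors, where it called 2.02% of all probe sets higher. The offset called 3 modifiers, against 3.63% of all probe sets. The background filter called 1 cofactor, 3 modifiers and 2 partner transcription factors, against 6.87% of the 11869 probe sets it kept.

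Same-numbered arrays deviated together (r = 0.639 across 21044 probe sets, which are not independent), but nothing in the labels says that the numbers pair the samples, and there are only 2 of them. With the replicate number as a block, limma called 11809 probe sets higher, 2 of the members (*Runx3*, adjusted p = 0.0102, and *Runx1*, adjusted p = 0.0211, with log2 differences of 2.28 and 1.15), 16 cofactors, 13 modifiers, 22 partner transcription factors and 16 target genes. The block left *Cbfb* at an adjusted p of 0.0692, and 56.1% of all probe sets were called higher.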
